A study of Mus musculus with 18 samples.

Results

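The POU factors described here are 7 transcription factor genes of the mouse, Pou2f1, Pou2f2, Pou3f1, Pou3f2, Pou3f3, Pou3f4 and Pou6f1, taken by symbol from a table of 23228 genes. All 7 were in the table. They hold every gene of POU class III and genes of classes II and VI, and the 8 POU genes that remain in the table are counted beside them. RNA was sequenced from 2 embryonic tissues of ICR mice with the genotype label WT. The first was GFP-positive cells sorted from E12.5 neural tubes, where E gives the embryonic day, from embryos with a transgene in which the autoregulatory enhancer of Ptf1a and the basal beta-globin promoter drive GFP. The second was the whole, unsorted E15.5 pancreas, for which the labels name no transgene. Ptf1a encodes a basic helix-loop-helix factor needed for the acinar pancreas and for inhibitory neurons of the dorsal neural tube, and the series asked how its programs differ between the 2 tissues. The GFP gate reports the activity of an enhancer, and GFP protein can outlast it, so the sorted cells are not a pure cell type. The labels name 2 libraries for each tissue, but the table holds 1 value per gene and tissue. No replicate spread, test or p-value can therefore be given, and every difference below compares 2 pooled samples. The remaining 16 samples of the series hold chromatin data and are not analysed here.

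POU proteins bind DNA through a POU-specific domain and a POU homeodomain joined by a flexible linker, and many of them recognise the octamer ATGCAAAT. In the developing nervous system class III factors often bind beside Sox proteins and act in progenitors and in newborn neurons. Class II holds the widely expressed Oct1 (Pou2f1) and the more restricted Oct2 (Pou2f2), and class VI holds Pou6f1, known from brain.

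The 4 class III genes are close paralogs, and the longest stretch of coding sequence that all 4 share is shown. A read lying wholly within a shared run cannot be given to a single gene by its letters. The longest coding run shared by any pair was 38 bases, and a read longer than a run takes in bases that differ. The shared 20 bases are in capitals, within 50 bases of coding sequence read from GENCODE M1 on NCBIM37. They start at coding base 901 in Pou3f1, 958 in Pou3f2, 1099 in Pou3f3 and 724 in Pou3f4, and lie in the part that codes for the POU-specific domain.
Pou3f1: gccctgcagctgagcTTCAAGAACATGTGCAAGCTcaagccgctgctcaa
Pou3f2: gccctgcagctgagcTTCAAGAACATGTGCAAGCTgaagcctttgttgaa
Pou3f3: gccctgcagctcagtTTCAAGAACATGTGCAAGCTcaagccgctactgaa
Pou3f4: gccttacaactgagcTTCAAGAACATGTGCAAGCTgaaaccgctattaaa
Against Pou3f3, the 50-base window differed at 4 bases in Pou3f1, 7 in Pou3f2 and 9 in Pou3f4. The 20 bases were not found in the coding sequences of Pou2f1, Pou2f2 or Pou6f1. In end-to-end alignments of the coding sequences, identity was taken over aligned bases only, with gaps left out. By this measure the 6 class III pairs were 72.4% to 77.3% identical, with longest shared runs of 23 to 38 bases. The 15 pairs that join other members were 62.5% to 72.9% identical and shared runs of 11 to 20 bases. Pairs of unlike length were thus compared only in part. The 72.9% of Pou3f4 and Pou2f1 covers 1074 aligned bases, of 2382 coding bases in Pou2f1. How reads in such runs were assigned is not given in the sources used here, so the split of signal among the class III genes carries an uncertainty of unknown size.

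The promoters of Pou3f2, Pou3f3 and Pou3f4 are shown next because these genes had the highest values of the 7 in the sorted neural tube cells, and that of Pou6f1 because it holds most of an octamer. RefSeq start sites on GRCm38.p6 gave promoter entries for 6 of the 7 members, and no promoter is shown for Pou3f1. The 250 bases before each start were found by exact match in NCBIM37, whose coordinates are printed, and each sequence runs 5′ to 3′ on the gene's strand. Capitals mark CCAAT or its reverse complement ATTGG, and in Pou6f1 the letters TTTGCAT, the reverse complement of ATGCAAA.
Pou3f2, chr4:22415514-22415763, minus strand: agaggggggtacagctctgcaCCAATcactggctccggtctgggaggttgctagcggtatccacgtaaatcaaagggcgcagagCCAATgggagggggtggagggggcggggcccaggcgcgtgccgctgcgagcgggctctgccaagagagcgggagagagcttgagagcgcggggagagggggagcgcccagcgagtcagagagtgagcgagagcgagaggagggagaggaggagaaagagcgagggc
Pou3f3, chr1:42752363-42752612, plus strand: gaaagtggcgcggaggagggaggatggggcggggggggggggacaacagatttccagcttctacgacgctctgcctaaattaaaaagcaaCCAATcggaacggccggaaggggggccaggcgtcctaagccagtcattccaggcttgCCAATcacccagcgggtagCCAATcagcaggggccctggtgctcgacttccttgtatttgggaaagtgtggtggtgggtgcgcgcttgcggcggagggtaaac
Pou3f4, chrX:108009468-108009717, plus strand: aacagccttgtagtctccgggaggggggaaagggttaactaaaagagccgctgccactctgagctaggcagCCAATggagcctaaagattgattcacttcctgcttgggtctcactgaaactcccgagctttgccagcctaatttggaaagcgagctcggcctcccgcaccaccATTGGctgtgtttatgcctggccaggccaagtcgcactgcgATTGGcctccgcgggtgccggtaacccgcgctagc
Pou6f1, chr15:100430416-100430665, minus strand: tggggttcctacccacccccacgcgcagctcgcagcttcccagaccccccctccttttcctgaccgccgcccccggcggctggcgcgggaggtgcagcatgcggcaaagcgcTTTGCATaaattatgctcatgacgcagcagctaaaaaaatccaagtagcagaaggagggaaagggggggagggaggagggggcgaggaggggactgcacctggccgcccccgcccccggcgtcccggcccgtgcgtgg
Pou3f2 held 2 copies of CCAAT, and Pou3f3 and Pou3f4 held 3 each when both strands were read. Among first promoter windows of 27025 genes, 34.5% held at least 1 copy, 10.5% at least 2 and 2.98% at least 3. The CCAAT box was looked for after the sequences had been seen, so these counts are a description. It was absent from the Pou2f2 window, from the Pou6f1 window and from all 3 Pou2f1 windows. The full octamer ATGCAAAT was in none of the 8 windows of the 6 members, on either strand, and was in 1.61% of the 27025 promoters. The 7 letters ATGCAAA, part of the octamer, were in 4.06% of promoters and among the members only in Pou6f1, from position -138, counted from the start site. An E-box, CANNTG on either strand, was in the Pou2f2 window, the Pou6f1 window and the third Pou2f1 window. It was in 66.0% of first windows and 66.2% of all windows. TGGGAA or TTCCCA, letters of the Rbpj site, were in the windows of Pou3f3 and Pou6f1 and the third of Pou2f1. They were in 21.5% of first windows and 21.6% of all windows. The first Pou2f1 window held neither the E-box nor the Rbpj letters. A match of letters is not evidence of binding.

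Of these genes 6 were higher in the sorted neural tube cells and 0 in the pancreas. Values are FPKM as the authors deposited them, a unit of fragments per kilobase of transcript scaled for library size. How the authors scaled for library size is not known here. Differences are log2(FPKM + 1) in neural tube minus pancreas, and the added 1 makes them too small for genes of low level. Calls of higher expression in a tissue needed a difference of at least 4 times on that scale and 5 FPKM in that tissue. By this rule of size, 10.3% of the 10744 genes that reached 5 FPKM in a tissue were called higher in neural tube and 11.9% higher in pancreas. All 7 members reached 1 FPKM in at least 1 tissue and 6 reached 5 FPKM. The call was met by 6 of 7 toward neural tube and by 0 toward pancreas. The median difference over the 7 was 3.19, with a range of 0.51 to 6.03, and it was -0.07 over the 14303 genes that reached 1 FPKM in a tissue. All 4 class III genes met the call, with a median difference of 4.50, and 2 of the 3 genes of classes II and VI met it, with a median of 3.13. In these bulk values, fewer cells of a type and less RNA per cell cannot be told apart. Tissue, stage, sorting and RNA extraction all differ between the same 2 samples, and cannot be told apart either.

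**Figure D1:**
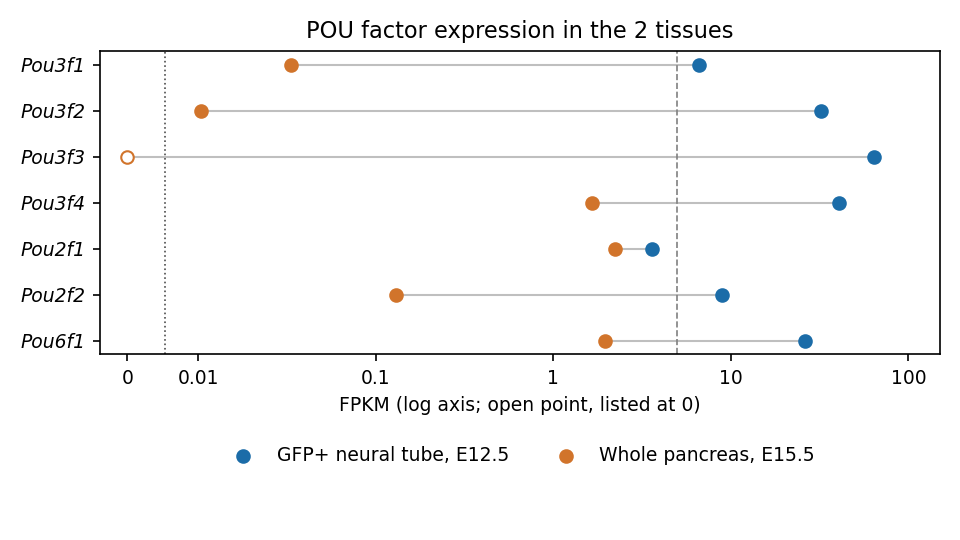
FPKM of the 7 POU genes in the sorted neural tube cells (blue) and the whole pancreas (orange), on a logarithmic axis with listed zeros drawn left of the dotted line. Blue points lie between 3.59 and 64.3 FPKM and orange points at 2.22 FPKM or lower, and the dashed line is 5 FPKM.

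Pou3f3 (Brn1), which acts in cortical neurons and in kidney development, was the highest of the 7 in neural tube. Its level was 64.3 FPKM there, above 91.0% of the genes that reached 1 FPKM in that tissue, and it was listed at 0 in pancreas. The difference was 6.03, the largest among the members. An exact 0 in this table can be a failed estimate, since the initiation factor gene Eif3j had 47.1 FPKM in pancreas and a listed 0 in neural tube. Genes at 20 FPKM or more in neural tube and listed at 0 in pancreas numbered 50. Of those, 43 were small RNA genes, and the other 7 were Lbx1, Neurog2, Olig3, Pou3f3, Prdm13, Slc6a5 and Zic2. Pou3f3 has 1 exon, at chromosome 1, 42753991 to 42757052 on the plus strand, in mm9 coordinates (NCBIM37, GENCODE M1), and its RefSeq start lies upstream of this model.

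Pou3f4 (Brn4) is known for inner ear development and as a regulator of the glucagon gene in pancreatic alpha cells. It reached 40.9 FPKM in neural tube, above 85.1% of expressed genes, and 1.65 FPKM in pancreas, above 7.53% of expressed genes there. The difference was 3.98 and the ratio of the 2 values was 24.7. Pou3f4 was thus the only class III gene above 1 FPKM in pancreas. Its 1-exon model lies on chromosome X, 108009729 to 108010910, on the plus strand. Alpha cell markers were present in the same pancreas sample. Glucagon (Gcg) was 712 FPKM there and 0.354 in neural tube, and of the 9 genes of that list 4 met the call toward pancreas and 2 toward neural tube. Their median difference was -1.54. The 9 genes summed to 1049 FPKM in pancreas and 85.3 in neural tube, and none of them was at 0 in either tissue. Irx1 and Irx2 were the genes of the list called higher in neural tube. The part of alpha cells in the Pou3f4 value was not tested.

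Pou3f2 (Brn2), which is used with Myt1l and other factors to convert fibroblasts into neurons, reached 32.0 FPKM in neural tube against 0.0104 in pancreas. That neural tube level was above 80.5% of expressed genes, and the difference was 5.03. By the step between low values in the pancreas column, 3 fragments would give roughly 0.0410 FPKM at the GENCODE M1 length of 1690 bases. The pancreas value lay under that, so no ratio is given. At the longer RefSeq length of 6272 bases the 3-fragment level would be lower. Pou3f2 has 1 exon at chromosome 4, 22413791 to 22415480, on the minus strand.

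Pou3f1 (Oct6) acts in early neural fate and in Schwann cells before they myelinate. It was the lowest of the class, at 6.63 FPKM in neural tube, above 35.0% of expressed genes, and 0.0333 in pancreas. The difference was 2.88, and the call was lost with a pseudocount of 5 FPKM, where the difference was 1.21, with a minimum of 10 FPKM, and with a call at 8 times. Pou3f1 has 1 exon at chromosome 4, 124334896 to 124337899, on the plus strand, where GENCODE M1 places a second model of the same name that is annotated as a pseudogene. Of 10 Schwann cell and neural crest markers 0 were called higher in neural tube and 3 in pancreas, among them Pmp22 and S100b. The median difference was -1.16 over the 8 at 1 FPKM or more. They summed to 15.98 FPKM in neural tube against 69.2 in pancreas. Cdh19 was listed at 0 in neural tube, and the myelin regulator Egr2 was at 0.123 FPKM there and 0.183 in pancreas. Foxd3 and Sox10, factors of the neural crest, had higher values in neural tube, 3.14 against 0.260 FPKM and 3.31 against 2.05, without meeting the call.

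The order within class III was Pou3f3, Pou3f4, Pou3f2 and Pou3f1 in neural tube, with no spread to say which neighbours differ. Of the summed 143.8 FPKM of the class there, Pou3f3 made up 44.7%, Pou3f4 28.4%, Pou3f2 22.2% and Pou3f1 4.61%. The class summed to 1.70 FPKM in pancreas, of which Pou3f4 made up 97.4%. These levels depend on the transcript length assumed. GENCODE M1 and RefSeq models differed in length, 1690 against 6272 bases for Pou3f2, 1182 against 4730 for Pou3f4, 3062 against 4443 for Pou3f3 and 3004 against 3010 for Pou3f1. Which lengths the authors used is not given in the sources used here, and a different choice can alter the order of the genes. If the same length was used in both tissues, the ratio of the 2 values would stay as it is. The differences in log2(FPKM + 1) and the calls could still change, because the added 1 and the minimum of 5 FPKM are fixed. All 4 genes have 1 exon, as do 12.8% of 22380 protein-coding genes. They were also rich in G and C, from 56.7% in Pou3f4 to 63.0% in Pou3f2, against a median of 49.6% over 20244 genes. The part of GC content in these values was not tested.

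Among the class II genes, Pou2f1 (Oct1), a widely expressed activator of histone and small nuclear RNA genes, was the lowest member in neural tube and the highest in pancreas. It was 3.59 FPKM in neural tube against 2.22 in pancreas, a difference of 0.51 and a ratio of 1.62, and it stayed under 5 FPKM in both. With 1 value per tissue, whether these 2 values differ cannot be tested. Pou2f1 lies at chromosome 1, 167795285 to 167932809, on the minus strand, with 10 annotated transcripts of up to 17 exons. Cd247, a T cell receptor subunit gene on the opposite strand, overlaps it by 12123 bases and was 0.143 FPKM in neural tube against 0.286 in pancreas. Strand use in counting is not given in the sources used here, so reads of the overlap cannot be told apart.

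Pou2f2 (Oct2), known from B cells and also from developing neurons, had 8.86 FPKM in neural tube against 0.130 in pancreas. The difference was 3.13 and the ratio 68.0. Its call was lost with a pseudocount of 5 FPKM, where the difference was 1.43, and with a minimum of 10 FPKM. It lies at chromosome 7, 25877472 to 25917507, on the minus strand, with 9 transcripts of up to 15 exons. In each tissue 6 of 8 B cell markers were below 1 FPKM. Among the 8, 2 were called higher in neural tube and 0 in pancreas, with a median of 2.60 over the 3 at 1 FPKM or more. The 8 summed to 37.0 FPKM in neural tube against 6.98 in pancreas. The former sum was mostly Ebf1 at 30.5 FPKM and Pax5 at 5.42, factors that neural cells express too. Cd79a was 0.557 FPKM in neural tube, and Ms4a1 was listed at 0.

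Pou6f1 (Brn5), the class VI member, was 26.0 FPKM in neural tube, above 75.6% of expressed genes, and 1.96 in pancreas, above 10.5%. The difference was 3.19 and the ratio 13.3. It lies at chromosome 15, 100405750 to 100430415, on the minus strand, with 2 transcripts of up to 11 exons. Pou6f1, Pou2f1 and Pou3f4 were the 3 members above 1 FPKM in pancreas, all between 1.65 and 2.22.

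**Figure D2:**
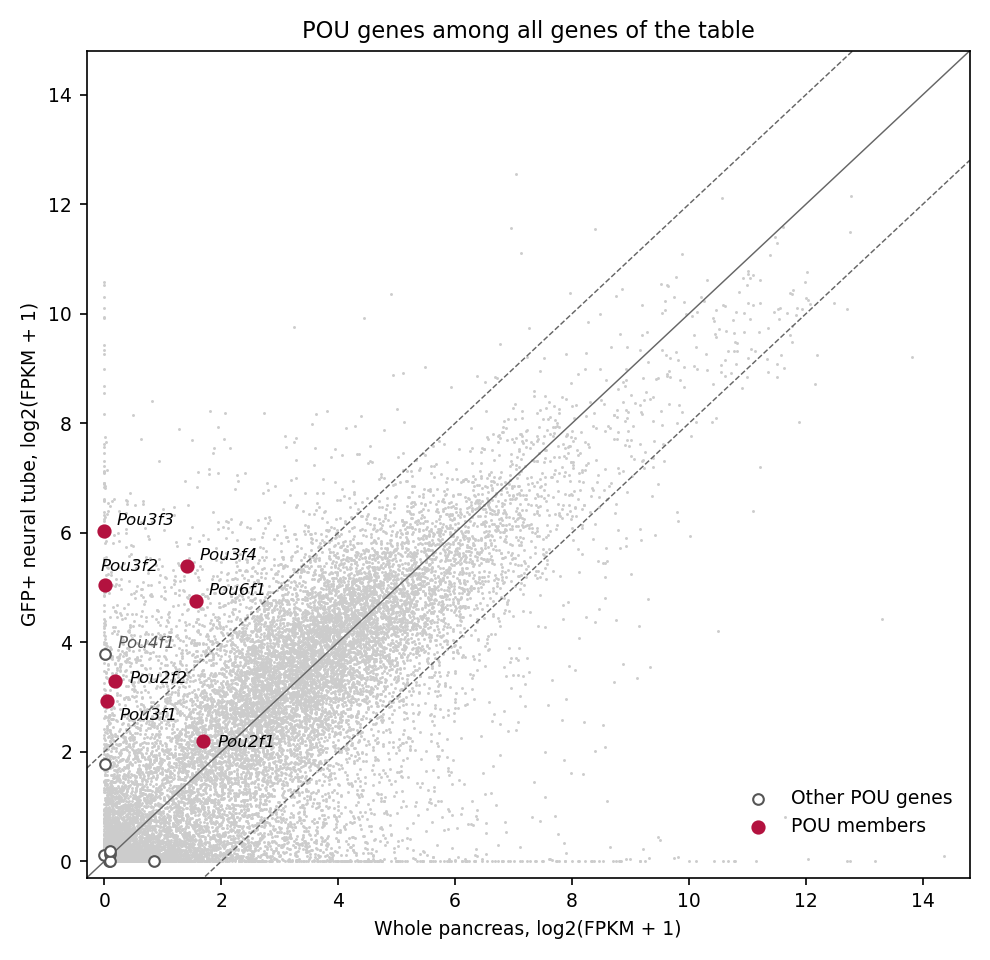
Each gene of the table by log2(FPKM + 1) in whole pancreas (horizontal) and sorted neural tube cells (vertical), with the 7 POU members in red and the 8 other POU genes as open circles. Dashed lines mark 4 times on this scale, and 6 red points and Pou4f1 lie above the upper line.

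Of the 8 other POU genes, only Pou4f1 met the call toward neural tube and none met it toward pancreas. Pou4f1 (Brn3a), a factor of sensory and some dorsal spinal neurons, had 12.8 FPKM in neural tube against 0.0120 in pancreas, a difference of 3.77. Its relative Pou4f2 was 2.44 and 0.0142 FPKM, a difference of 1.76 under the minimum level. Pou4f3, a factor of hair cells, was 0.0817 FPKM in neural tube and listed at 0 in pancreas. The pituitary factor Pou1f1 was listed at 0 in neural tube and was 0.0544 FPKM in pancreas. Pou2f3, a factor of tuft cells and skin, was likewise listed at 0 in neural tube and was 0.794 FPKM in pancreas. The pluripotency factor Pou5f1 was 0.0987 and 0.0734 FPKM, in the same order of tissues. Pou5f2 was listed at 0 in neural tube, with 0.0653 FPKM in pancreas.

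Summed over all 15 POU genes, expression was 197.8 FPKM in neural tube against 7.09 in pancreas. Class III made up 72.7% of the neural tube sum, class VI 13.2%, class IV 7.74% and class II 6.30%. In pancreas class II made up 44.4%, class VI 28.6% and class III 24.0%, so class III led in neural tube and class II, mostly Pou2f1, in pancreas.

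**Figure D3:**
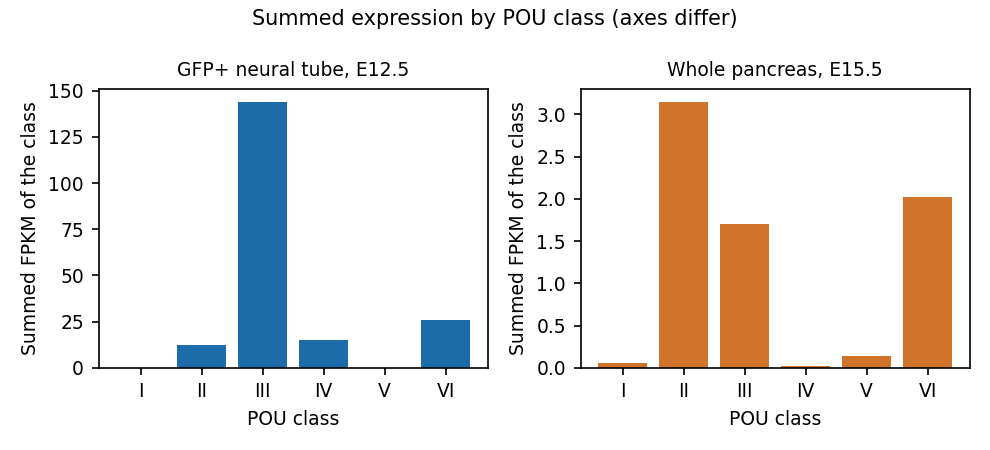
Summed FPKM of the genes of each POU class in the sorted neural tube cells (left) and the whole pancreas (right), on axes of different scale that start at 0. Class III is the tallest bar on the left, at 143.8 FPKM, and class II on the right, at 3.14 FPKM.

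None of the 8 cofactors of octamer binding met the call in either direction, and the median difference was 0.46 over the 7 at 1 FPKM or more. Hcfc1, a partner of Oct1, had 52.5 FPKM in neural tube against 15.3 in pancreas, a difference of 1.71. Snapc3, a subunit of the complex that binds small nuclear RNA promoters with Oct1, was 20.1 and 5.39, a difference of 1.72. The smallest differences were those of Snapc1, 0.08, with 7.07 and 6.61 FPKM, and Snapc5, -0.18, with 15.36 and 17.5 FPKM. Pou2af1, the B cell coactivator of Oct1 and Oct2, was listed at 0 in neural tube and was 0.359 FPKM in pancreas.

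Sox factors, many of which bind beside POU factors, were called toward neural tube in 7 of 12 cases and never toward pancreas, with a median difference of 2.81. Sox2 had 88.8 FPKM in neural tube against 0.0773 in pancreas, and Sox3 was 83.2 and 0.0463, differences of 6.38 and 6.33. Sox9, a factor of progenitors in both organs, was 21.2 and 12.6 FPKM, a difference of 0.71 that did not meet the call. Sox12, at 55.3 and 10.7 FPKM, met it with a difference of 2.26.

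Factors used with Pou3f2 or in like combinations to convert cells into neurons met the call toward neural tube in 7 of 9 cases and toward pancreas in 0, with a median of 3.50. Myt1l, the partner named above, had 12.5 FPKM in neural tube against 0.193 in pancreas and was called in the same direction as Pou3f2. Zic1 had the largest difference, 7.72, with 213 FPKM in neural tube. Neurog2 followed at 4.92, with 29.3 FPKM in neural tube and a listed 0 in pancreas. Among the genes of this list at 5 FPKM or more, the smallest differences were those of Neurod1, 0.76, with 11.95 and 6.63 FPKM, and St18, 2.29.

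Genes described as targets of class III factors met the call toward neural tube in 4 of 7 cases and toward pancreas in 0, with a median of 3.22 over the 4. Sox2, given above among the Sox factors, had the largest difference of the 4, 6.38. Sox2, Fabp7 and Nes are also counted among the progenitor genes below, so the counts of these lists are not independent. Fabp7, a radial glia lipid-binding protein, had 183 FPKM in neural tube against 14.3 in pancreas, a difference of 3.58. The progenitor filament gene Nes was 83.2 and 12.8 FPKM, a difference of 2.61, and the Notch ligand gene Dll1 was 44.3 and 5.26, a difference of 2.85. The hypothalamic hormone genes Crh, Avp and Oxt were at 0.265 FPKM or lower in both tissues. Class III binding was not measured.

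LIM homeobox genes met the call toward neural tube in 3 of 12 cases, with a median of 2.36 over the 6 at 1 FPKM or more. Of the 12, 7 were below 1 FPKM in neural tube and 10 in pancreas, so that median leaves out many genes of low level. Pax genes met the call toward neural tube in 5 of 9 cases, with a median of 3.02 over the 8 at 1 FPKM or more. Lhx5 and Lhx1, factors of dorsal interneurons, differed by 6.31 and 6.14. Isl1, a factor of motor neurons and islet cells, had 2.67 FPKM in neural tube against 16.5 in pancreas and was the LIM gene called toward pancreas, with a difference of -2.25. Among Pax genes Pax2 differed by 6.80 and Pax8 by 5.33. Pax6 was 15.52 and 10.8 FPKM, a difference of 0.48. The Pax, Sox, LIM and POU lists share the 2 samples, and nothing here says that the POU genes stand apart from them.

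**Figure D4:**
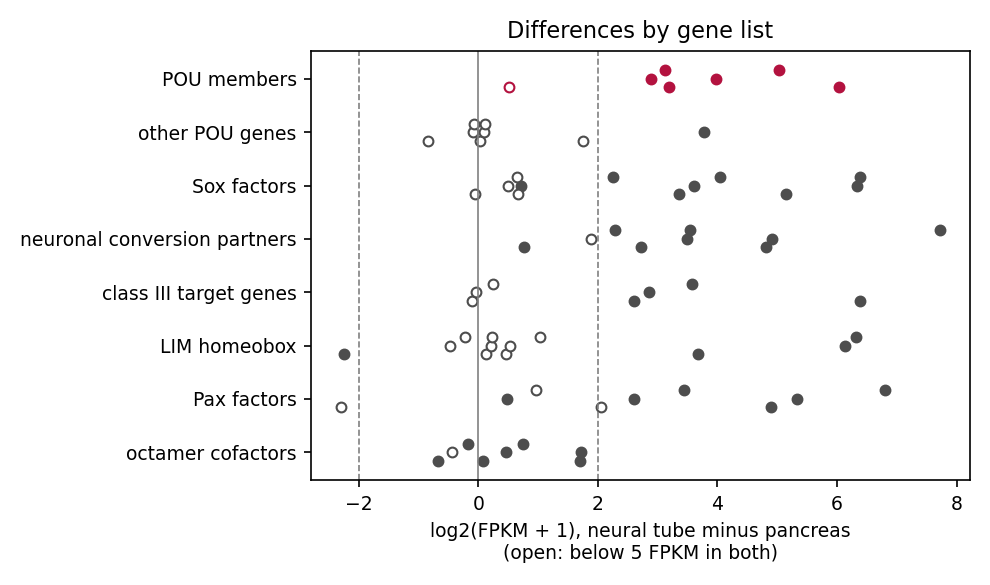
Difference in log2(FPKM + 1), neural tube minus pancreas, of each gene in the POU members (red) and the lists named on the left, with open points for genes below 5 FPKM in both tissues. Points beyond a dashed line differ by at least 4 times on this scale, which includes 6 of 7 POU members and 0 of 8 octamer cofactors.

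Each member at 5 FPKM or more was compared with 147 genes of the lists by Euclidean distance in log2(FPKM + 1) over the 2 tissues, so likeness here means 2 similar values and no more. Pou3f3 lay nearest to the Notch target Hes5 (distance 0.06), then to Lbx1 and Lhx5. Pou3f2 lay nearest to Gad2, Neurog2 and Pax3, at distances of 0.12 to 0.13. Nearest to Pou3f4 were the neuronal genes Mapt, Elavl4 and Snap25, at 0.41 to 0.49. Pou3f1 lay nearest to Neurog1, Pax5 and Pax7, and Pou2f2 to Pax7, Sox21 and Myt1l. For Pou6f1 the nearest were Irx2, Snap25 and Ebf1, at 0.43 to 0.53.

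Of 22 genes within 100 kb of a member that reached 1 FPKM in a tissue, 5 were called toward neural tube and 3 toward pancreas. Over all genes that reached 5 FPKM in a tissue, a higher minimum than for the neighbours, the shares were 10.3% and 11.9%. With so few neighbours the count is a description. Pou3f3 had a single such neighbour, 2610017I09Rik, 30.2 kb away at chromosome 1, 42705223 to 42723757 on the minus strand. That gene had 96.9 FPKM in neural tube against 0.117 in pancreas, a difference of 6.45. Of the neighbours of Pou2f2, 2 were called toward neural tube. Grik5, a kainate receptor gene 20.1 kb away, was among them, with a difference of 2.46. Pou6f1 lay 74.4 kb from Cela1, an acinar elastase gene at 0.0419 FPKM in neural tube against 851 in pancreas, so called genes of opposite direction lay within the same interval. Around Pou3f1 the call was met only by Mir697, which overlaps Sf3a3 in the annotation, and the only neighbour of Pou3f2, Fbxl4, did not meet it. No neighbour of Pou3f4 reached 1 FPKM.

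Markers of neural and pancreatic cells differed strongly between the samples. All 8 inhibitory dorsal interneuron genes and all 9 neuron genes in the table met the call toward neural tube, as did 7 of 8 progenitor genes, with median differences of 6.18, 4.52 and 4.85. The interneuron genes summed to 556 FPKM in neural tube against 1.04 in pancreas. In the opposite direction 6 of 8 acinar genes were called toward pancreas, with a median of -10.83 over the 7 at 1 FPKM or more. All 8 were below 1 FPKM in neural tube. Calls toward pancreas were also met by 5 of 6 mesenchyme, 5 of 6 endothelium and 5 of 6 macrophage markers, with medians of -5.25, -2.53 and -3.12. Neuron genes were not absent from it, with Stmn2 at 13.7 FPKM and Tubb3 at 8.51. Of the 6 erythroid genes, 4 were called toward pancreas and 1 toward neural tube, with a median of -3.78, and Hba-a1 was 587 FPKM in the sorted cells. Housekeeping genes were called toward pancreas in 2 of 12 cases, with a median of -0.38. The part of cell makeup in the POU values was not tested.

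**Figure D5:**
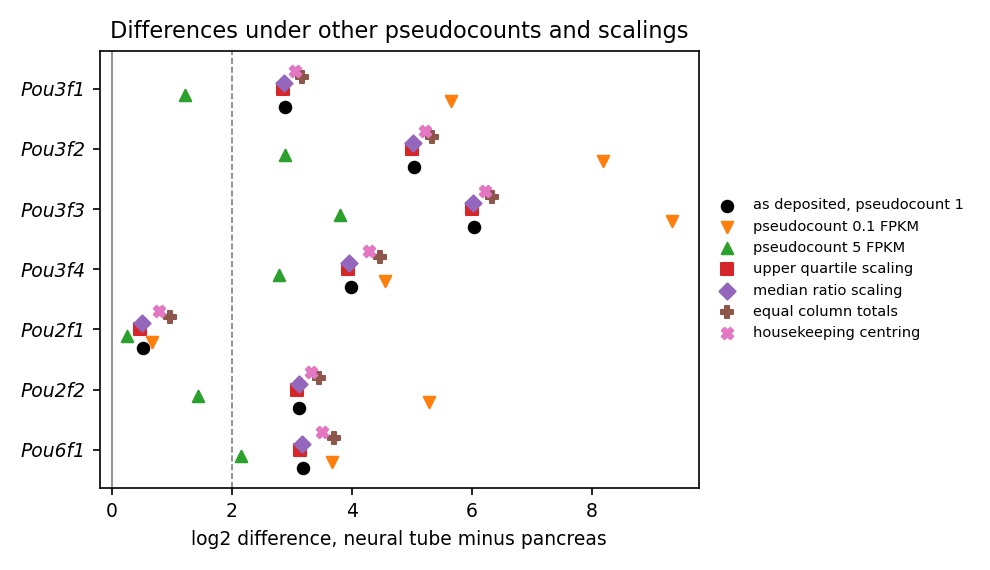
Difference in log2(FPKM + 1) or with another pseudocount, neural tube minus pancreas, of each POU member as deposited (black) and under the other pseudocounts and scalings in the key. The dashed line is 4 times, and all points lie above 0, with Pou2f1 between 0.25 and 0.97 in each.

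Rescaling the columns moved the differences of most genes, by an amount that depended on the scaling. With equal column totals the median of genes at 1 FPKM or more in both tissues moved from 0.02 to 0.57, and with centring on housekeeping genes to 0.35. It moved little with upper quartile scaling, to -0.03, and with median ratio scaling, to 0.0. Of all calls, 46.4% were toward neural tube as deposited, 66.8% with equal totals and 59.3% with housekeeping centring. The share was 44.3% with upper quartile scaling and 45.2% with median ratio scaling. Pou3f2, Pou3f3, Pou3f4 and Pou6f1 met the call toward neural tube under all 10 alternatives, and Pou2f1 met it under none.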

How the data were processed

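RNA from GFP-positive neural tube cells (E12.5) and whole pancreas (E15.5) was compared using the FPKM table that the authors deposited, 1 value per gene and tissue. Per the labels' protocols, RNA was taken with a column kit after trypsin dissociation and cell sorting, or with Trizol from pancreas. The protocols name both an mRNA-seq and a TruSeq preparation for pancreas. Per the submitters' processing notes the build was mm9 and the tools CASAVA, TopHat, TopHat2 2.0.4 and Cuffdiff 2.0.2. Annotation, transcript lengths, depth and the pooling step are not stated there. FPKM depends on assumed transcript length and can depend on what the most abundant genes take of a library.

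Differences were computed in Python 3.11.15 (pandas 2.3.3, numpy 2.4.6) as log2(FPKM + 1) from the deposited values. Calls needed 4 times on that scale and 5 FPKM in the higher tissue, and medians used genes at 1 FPKM or more. Coordinates come from GENCODE M1 on NCBIM37, the build mm9, and 21662 table symbols matched a single gene there. Alternatives were 2 pseudocounts, 2 filters, 4 scalings and 2 call sizes. The members and 19 gene lists were chosen with earlier results of these data known. Genes named are the members, all other POU genes, in each list the 2 genes with the largest and the 2 with the smallest difference at 5 FPKM or more, neighbours within 100 kb and the 3 nearest list genes of each member. Some genes under this rule are not reported here. Other names, such as Myt1l, Nes, Dll1, Egr2, Foxd3, Sox10 and the B cell genes, were chosen after their values were seen.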

Additional observations from a re-analysis of the deposited data

How the results depend on the processing

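The count of members higher in neural tube was 6 under the rule of size and under 7 of the 10 alternatives. Those 7 were weak trials of it. A pseudocount of 0.1 FPKM, no filter and a call at 2 times are looser than the rule. Equal column totals and housekeeping centring raised neural tube against pancreas, by factors of 1.54 and 1.3. Upper quartile and median ratio scaling lowered it only slightly, by factors of 0.955 and 0.981. Each stricter setting lowered the count. It fell to 4 with a pseudocount of 5 FPKM, to 4 with a minimum of 10 FPKM and to 5 with a call at 8 times. Members higher in pancreas numbered 0 throughout. The median difference over the members, 3.19, was 5.28 with a pseudocount of 0.1 FPKM, 2.15 with 5 FPKM and 4.50 with a minimum of 10 FPKM, which leaves fewer members. It was 3.14 with upper quartile scaling, 3.17 with median ratio scaling, 3.69 with equal column totals and 3.49 with housekeeping centring. The 2 housekeeping genes Hprt and Gusb were themselves called toward pancreas. No direction reversed for any member. Under a pseudocount of 5 FPKM 4.77% of genes were called toward neural tube, against 10.3% as deposited. No paired analysis was possible because the table holds 1 value per gene and tissue. Depth is not given and was only roughly read from the steps between low values. By these, at GENCODE M1 lengths, 3 fragments give about 0.0231 FPKM for Pou3f1 and 0.0410 for Pou3f2 in pancreas. Their values there, 0.0333 and 0.0104 FPKM, thus rest on few fragments.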

Other observations

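The genes around the members gave a mixed picture. Next to Pou2f1, Creg1, which encodes a secreted glycoprotein, was 1.75 FPKM in neural tube and 25.0 in pancreas and was called toward pancreas, while Dusp27 was 0.259 and 1.16 FPKM. Near Pou2f2, Zfp574 (14.3 and 3.13 FPKM) and D930028M14Rik (8.07 and 1.42) differed by 1.89 and 1.91, just under the call, and Gsk3a, a kinase gene, was 47.5 and 23.2 FPKM. Near Pou6f1, Csrnp2 was 15.6 and 2.71 FPKM and was called toward neural tube, and Smagp was 0.470 and 6.13 and was called toward pancreas. Near Pou3f1, Utp11l had 20.4 FPKM in neural tube against 51.0 in pancreas, a difference of -1.28.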
